A study of Mus musculus with 8 samples.

Results

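The genes described here encode the collagens, the laminins and the integrins, together with fibronectin (Fn1), the nidogens (Nid1 and Nid2), perlecan (Hspg2) and Sparc. They were chosen by symbol among protein-coding genes: 86 of the 55416 gene identifiers in the table, namely 44 collagen genes, 11 laminin genes, 18 integrin alpha genes, 8 integrin beta genes and the 5 other matrix genes. The RNA came from MB21, a line of mouse medulloblastoma cells whose genotype is given as ptch mutant in every sample. One group of 4 libraries, called DS38, came from cells kept for 5 days with 10 uM DS-1-38, a derivative of benzarone. The other 4 libraries, called DMSO, came from cells kept for the same 5 days with the vehicle. All cells grew without attachment in a serum-free medium with B27 supplement, so no library reports on cells held on a matrix-coated or plastic surface. Whether the 4 libraries of each group stem from different cultures is not stated, so the p-values speak of the spread among these libraries, which could be technical.

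Laminins are trimers of 1 alpha, 1 beta and 1 gamma chain that polymerize at the cell surface, and collagen IV forms the other network of a basement membrane, to which nidogens and perlecan tie the laminin sheet. Integrins are pairs of an alpha and a beta chain that bind such matrix proteins outside the cell and talin-linked actin inside it. In the developing cerebellum, the granule neuron progenitors from which Hedgehog medulloblastoma arises divide beneath the pial basement membrane and contact its laminin through integrins that hold the beta 1 chain.

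The promoters of 6 members are shown because they belong to pairs that the results compare. Col4a5 and Col4a6 are transcribed away from each other on the X chromosome, with 1342 bases between their starts, and both rose. Col5a1 and Col11a1 encode chains of the related type V and type XI fibrils, and both rose. Itgav rose, whereas Itgb1, whose product can pair with that of Itgav, fell. The bases lie up to 250 before the RefSeq start on GRCm38.p6, each read 5′ to 3′ on the gene's strand, and that of Col4a5 stops where an annotated exon begins. Capitals mark matches, on either strand, to CCAAT or to the GC box GGGCGG.
Col4a5, chrX:141475169-141475384, plus strand: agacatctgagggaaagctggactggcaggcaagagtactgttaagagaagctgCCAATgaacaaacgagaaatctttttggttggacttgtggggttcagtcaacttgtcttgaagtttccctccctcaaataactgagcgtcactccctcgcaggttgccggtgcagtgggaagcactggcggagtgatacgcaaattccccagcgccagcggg
Col4a6, chrX:141474077-141474326, minus strand: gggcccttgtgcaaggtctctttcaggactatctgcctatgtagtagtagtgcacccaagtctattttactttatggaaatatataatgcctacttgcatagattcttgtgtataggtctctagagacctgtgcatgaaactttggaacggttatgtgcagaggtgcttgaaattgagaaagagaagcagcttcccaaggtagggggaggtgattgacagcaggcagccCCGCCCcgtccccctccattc
Col5a1, chr2:27886175-27886424, plus strand: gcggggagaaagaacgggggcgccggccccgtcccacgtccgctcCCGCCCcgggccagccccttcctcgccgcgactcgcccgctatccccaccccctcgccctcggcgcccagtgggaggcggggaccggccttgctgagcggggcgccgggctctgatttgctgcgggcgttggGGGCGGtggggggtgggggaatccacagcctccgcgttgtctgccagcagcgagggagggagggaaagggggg
Col11a1, chr3:114030290-114030539, plus strand: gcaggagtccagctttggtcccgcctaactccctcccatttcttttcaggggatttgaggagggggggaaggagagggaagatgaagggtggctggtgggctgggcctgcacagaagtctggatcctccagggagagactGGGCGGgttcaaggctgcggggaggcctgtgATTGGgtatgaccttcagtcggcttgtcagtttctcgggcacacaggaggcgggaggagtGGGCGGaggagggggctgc
Itgav, chr2:83724147-83724396, plus strand: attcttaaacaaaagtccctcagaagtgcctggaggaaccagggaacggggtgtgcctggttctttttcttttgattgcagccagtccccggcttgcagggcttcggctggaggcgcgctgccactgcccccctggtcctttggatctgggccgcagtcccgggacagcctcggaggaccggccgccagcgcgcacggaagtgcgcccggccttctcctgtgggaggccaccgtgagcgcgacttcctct
Itgb1, chr8:128685404-128685653, plus strand: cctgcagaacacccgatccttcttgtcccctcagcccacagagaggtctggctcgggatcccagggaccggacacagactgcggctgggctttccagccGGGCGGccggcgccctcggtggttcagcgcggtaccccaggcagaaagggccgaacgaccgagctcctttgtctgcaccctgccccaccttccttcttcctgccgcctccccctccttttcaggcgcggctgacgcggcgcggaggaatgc
The GC box occurred in all but 2 of these stretches, those of Col4a5 and Itgav, while CCAAT was found in Col4a5 and Col11a1. No match to TATAAA, to the AP-1 motif TGANTCA, to the Gli motif GACCACCCA or to the Atf4 motif TGATGNAAT lay in these windows. None of the 6 motifs contains another. Over the 250 bases before each start, 61 of the 86 members had an entry in the RefSeq table, and 50.8% of them held a GC box, against 32.7% of all 32841 windows. CCAAT stood in 26.2% of the members' windows and 33.9% of all windows, and TATAAA in 8.20% and 12.4%. Only the first listed window of each member was used, whereas the 32841 windows were not limited in that way. The shares are therefore not like for like, and GC content was not matched. These are matches of letters and say nothing on binding.

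Read totals ran from 17142397 to 28476019 counts per library. In 33 members the counts were too low for the test, with 1 to 56 counts over the 8 libraries and 225 in DMSO against 267 in DS38 for all 33 together. They were 20 collagen genes, 4 laminin genes, 5 integrin alpha genes and 4 integrin beta genes. In bulk RNA, more cells of a type and more RNA per cell cannot be told apart. Of 10 markers of the granule neuron lineage, all had enough counts for the test, and their summed level was 1791 to 1826 CPM in DMSO and 2038 to 2101 CPM in DS38, where CPM stands for counts scaled to the TMM-adjusted library total. Of these markers 6 rose (60%) and 2 fell (20%), against 18.8% and 20.7% of all tested genes. Atoh1 rose from 284 to 432 CPM, Barhl1 and Cntn2 rose too, and Pax6 rose only from 51.3 to 55.5 CPM. Zic1 fell from 624 to 557 CPM and the Hedgehog target Gli1 from 137 to 90.9 CPM.

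Most tested members stood higher in DS38. Among the 53 members with enough counts, 27 rose and 1 fell at an adjusted p under 0.05 in edgeR's quasi-likelihood test, and the other 25 did not pass. In all 15133 genes tested, 39.5% passed: 18.8% rose and 20.7% fell. With library totals in place of TMM factors, 29 members (54.7%) and 25.9% of all tested genes rose, and rises made up 64.3% of all calls instead of 47.5%. The median log2 fold change was 0.52 over the tested members and -0.01 over all tested genes, and 48 members had a positive value against 5 with a negative one. In 25 members every DS38 library lay above every DMSO library, a pattern seen in 17.3% of all tested genes. Rises were found in 11 of 24 collagen genes, 4 of 7 laminin genes, 7 of 13 integrin alpha genes, 1 of 4 integrin beta genes and 4 of the 5 other matrix genes.

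**Figure D1:**
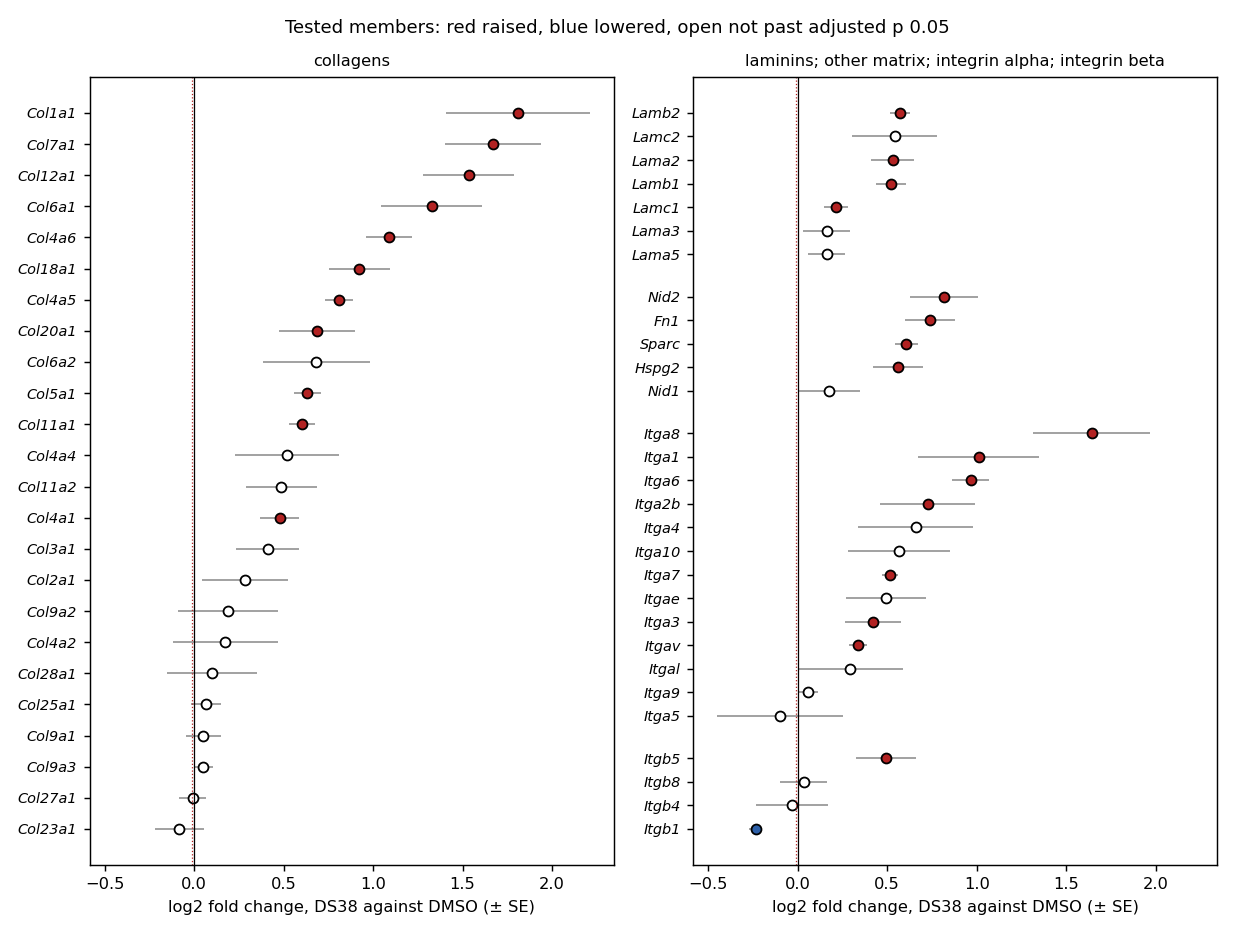
Log2 fold change of DS38 against DMSO (x axis) with its standard error (bars) for the 53 tested members, collagens on the left and the other families on the right; the dotted red line is the median of all tested genes. Of the 28 coloured points, 27 lie to the right of 0 and Itgb1 alone lies to the left, at -0.24.

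The filter on low counts keeps a gene that is high in either group, so the counts above cannot be read as those of all 86. With the filter removed, 24 of the 86 members rose and 1 fell, while 8.99% of all genes with a count rose. Gene level and gene length were also set beside the count. At a mean level of 10 CPM or more, 11 of 16 members rose and 1 fell, against 20.6% and 28% of all genes at that level. From 1 to 10 CPM 11 of 24 rose and 0 fell, against 17.1% and 11.1%. Below 1 CPM, 5 of 13 members rose and 0 fell, against 12.9% and 4.25%. These 5 were Col1a1, Itga8, Col6a1, Itga1 and Itga2b. None met the filter's minimum in every DMSO library, so each was tested only because of its DS38 counts. The rises in this band are thus tied to the filter, as is that of Col7a1 in the band from 1 to 10 CPM. The members are long genes, with a median length of 7464 bases against 3975 bases for all tested genes, and over all tested genes fold change increased with length (a description across genes, not replicates, with a Spearman's rho of 0.223). Among genes of at least 4000 bases, 25 of 49 members rose and 1 fell, against 25.7% and 19.9% of all such genes. After a correction that removed the trend with length, chosen after seeing the data, 26 members rose, all of them among the 27. The call lost was that of Lamc1.

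**Figure D2:**
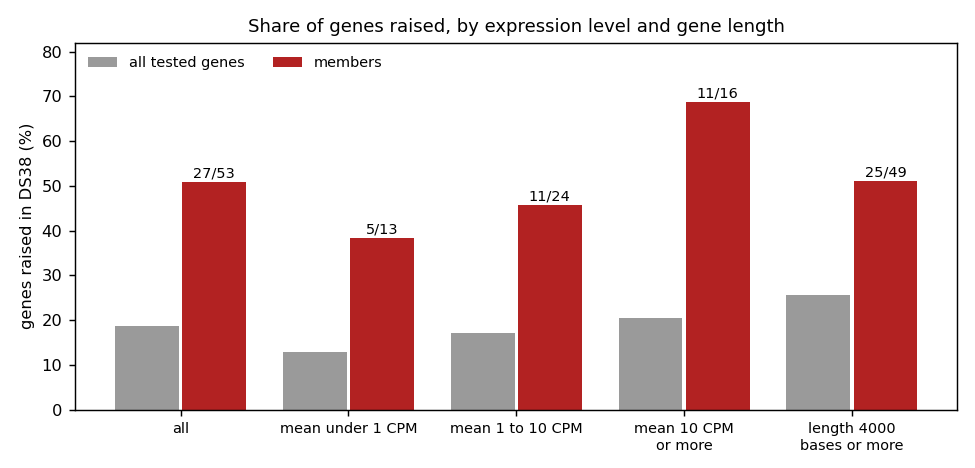
Percentage of genes raised in DS38 at an adjusted p under 0.05 (y axis) among all tested genes (grey) and among tested members (red), for all genes, for 3 bands of mean CPM over the 8 libraries and for genes of at least 4000 bases, with the number of members raised over the number tested printed on each red bar. The red bar exceeds the grey one in each pair, from 38.5% against 12.9% below 1 CPM to 68.8% against 20.6% at 10 CPM or more. Below 1 CPM none of the raised members met the filter on low counts in every DMSO library, so all were tested only because of their DS38 counts. The same holds for Col7a1 in the band from 1 to 10 CPM.

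Among the laminin genes, both tested beta chains rose and the alpha 5 chain, which dominates its class, did not pass. Levels are compared between genes in RPKM, the CPM per kilobase of gene length. Lama5 gave 95.1% to 96.6% of the summed RPKM of the alpha genes in DMSO libraries and 94.9% to 95.7% in DS38 libraries. Lamb2 gave 85.6% to 87.1% and 86.1% to 87.6% of the beta genes, and Lamc1 at least 99.2% of the gamma genes in every library. Lama5, Lamb2 and Lamc1, the most abundant transcripts of their classes, encode the chains of 1 known trimer.

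Lamb2 (ENSMUSG00000052911), the beta 2 chain gene, stood at 32.9, 30.2, 29.8 and 34.0 CPM in DMSO replicates 1 to 4 and at 49.2, 46.1, 49.0 and 44.3 CPM in DS38 replicates 1 to 4. The groups did not overlap, and the rise was 1.49-fold (log2 fold change 0.57 ± 0.055 SE, edgeR adjusted p = 2.42e-07). Lamb1 (ENSMUSG00000002900), the beta 1 chain gene, had 7.42, 7.78, 7.94 and 8.57 CPM in DMSO and 11, 11.6, 11.9 and 11.1 CPM in DS38. It rose to a like extent, 1.44-fold, again with no overlap (log2 fold change 0.52 ± 0.084 SE, edgeR adjusted p = 8.11e-05). Lama2, the alpha 2 chain gene of muscle and nerve basement membranes, rose from 4.21, 3.82, 3.48 and 4.24 CPM to 5.94, 5.16, 5.65 and 6.14 CPM (edgeR adjusted p = 0.00185, log2 fold change 0.53). For Lama5 (ENSMUSG00000015647) the values were 178, 145, 149 and 193 CPM in DMSO and 202, 188, 183 and 169 CPM in DS38. Those groups overlapped, DMSO replicates 1 and 4 being as high as part of the DS38 libraries (log2 difference 0.16 ± 0.103 SE, edgeR adjusted p = 0.255). Without DMSO replicate 4 the adjusted p of Lama5 was 0.0433. Lamc1 (ENSMUSG00000026478), the gamma 1 chain gene, had 191, 196, 208 and 197 CPM in DMSO and 214, 269, 214 and 220 CPM in DS38. All DS38 libraries lay above the DMSO libraries, DS38 replicate 2 far above the other three. The 1.16-fold rise of Lamc1 passed narrowly (edgeR adjusted p = 0.0262), and it did not pass without DMSO replicate 1 (0.0733), DMSO replicate 2 (0.0714) or DMSO replicate 4 (0.0676), or with the length correction (0.0639). Without DS38 replicate 2 the log2 fold change of Lamc1 was 0.13 in place of 0.21 (edgeR adjusted p = 0.0349). Lama1, the alpha 1 chain gene of embryonic basement membranes, was not tested, with 27 counts over the DMSO libraries and 28 over the DS38 libraries, at 0.051 to 0.481 CPM and 0.115 to 0.378 CPM.

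The linkers of the basement membrane and the other glycoproteins rose, with Nid1 as the exception. Sparc (ENSMUSG00000018593), which encodes a secreted collagen-binding protein that modulates adhesion, stood at 73.7, 72.8, 68.4 and 66.0 CPM in DMSO and at 95.5, 115, 101 and 117 CPM in DS38. No DS38 library came near the DMSO range, and the rise was 1.52-fold (log2 fold change 0.61 ± 0.062 SE, edgeR adjusted p = 2.32e-06). Fn1 (ENSMUSG00000026193), the fibronectin gene, had 14.4, 11.7, 12.9 and 17.9 CPM in DMSO and 22.9, 27.0, 25.1 and 19.3 CPM in DS38. DMSO replicate 4 and DS38 replicate 4 came closest to each other, and the groups stayed apart (1.67-fold, log2 fold change 0.74 ± 0.140 SE, edgeR adjusted p = 0.00235). Hspg2 (ENSMUSG00000028763), which encodes the heparan sulfate proteoglycan perlecan, had 52.6, 42.1, 43.5 and 62.4 CPM against 78.1, 81.3, 67.5 and 67.8 CPM. Its spread in DMSO was wide, and the 1.47-fold rise (edgeR adjusted p = 0.0163) did not pass without DS38 replicate 1 (0.0514) or without the filter (0.052). Nid2, the nidogen 2 gene, rose 1.76-fold, from 1.81, 1.30, 1.47 and 1.38 CPM to 3.27, 2.17, 2.77 and 2.39 CPM (edgeR adjusted p = 0.00233). Exons of Nid2 overlap those of Rtraf on the other strand, with 26983 counts to Rtraf and 364 to Nid2, and since the strand setting of the counting is not given in the sources used here, the value of Nid2 is uncertain. Nid1 stood at 1.97 ± 0.165 CPM in DMSO and 2.23 ± 0.316 CPM in DS38 (SD, n = 4 each), with overlap (log2 difference 0.18 ± 0.172 SE, edgeR adjusted p = 0.444).

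Of the collagen IV genes, the Col4a5 and Col4a6 pair showed the larger rises. Col4a5 (ENSMUSG00000031274) went from 10.8, 11.4, 9.79 and 10.3 CPM in DMSO to 16.7, 19.5, 19.5 and 18.8 CPM in DS38, or 1.75-fold (log2 fold change 0.81 ± 0.078 SE, edgeR adjusted p = 2.17e-07). Col4a6 (ENSMUSG00000031273) went from 2.73, 3.65, 2.77 and 3.01 CPM to 6.07, 6.37, 6.63 and 6.97 CPM, or 2.13-fold (log2 fold change 1.09 ± 0.127 SE, edgeR adjusted p = 2.50e-06). In neither gene did the groups overlap. Their alpha 5 and alpha 6 chains assemble into 1 trimer. The RPKM of Col4a5 was 3.72 to 4.69 times that of Col4a6 in DMSO libraries and 3.21 to 3.64 times in DS38 libraries.

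The second divergent pair, Col4a1 and Col4a2, which encodes the chains of the common collagen IV trimer, was unequal in level. Col4a1 (ENSMUSG00000031502) rose 1.39-fold, from 5.21, 5.61, 5.71 and 4.95 CPM to 8.25, 7.5, 7.61 and 6.50 CPM (edgeR adjusted p = 0.00176, log2 fold change 0.48 ± 0.108 SE). Col4a2 stayed near 0.5 CPM, at 0.507 ± 0.0986 CPM in DMSO and 0.568 ± 0.0799 CPM in DS38 (SD, n = 4 each), with overlap (log2 difference 0.18 ± 0.296 SE, edgeR adjusted p = 0.67). Per length, Col4a1 was 7.63 to 11.6 times as abundant as Col4a2 in DMSO libraries and 10.1 to 14.6 times in DS38 libraries. Annotated exons of this pair overlap on opposite strands, so reads at that place may count to either gene. The alpha 4 chain gene Col4a4 had a log2 difference of 0.52 ± 0.290 SE (edgeR adjusted p = 0.166), and Col4a3, with 25 counts in all, was not tested.

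Of 7 tested genes for fibrillar collagens, which form the cable-like fibrils of connective tissue, 3 rose and 4 did not pass. Col5a1 (ENSMUSG00000026837), a type V chain gene that helps to start fibrils, stood at 20.4, 18.6, 21.7 and 23.1 CPM in DMSO and 34.6, 35.0, 31.2 and 28.3 CPM in DS38. The DS38 libraries were all higher, by 1.55-fold in the fit (log2 fold change 0.63 ± 0.077 SE, edgeR adjusted p = 6.08e-06). Col11a1 (ENSMUSG00000027966), a type XI chain gene, rose 1.52-fold, from 13.3, 14.0, 14.8 and 16.7 CPM to 21.6, 23.7, 21.8 and 21.6 CPM (edgeR adjusted p = 4.80e-06, log2 fold change 0.60 ± 0.074 SE). Col27a1, another fibrillar gene at about the same level, had 21.0 ± 1.99 CPM in DMSO and 21.0 ± 1.36 CPM in DS38 (SD, n = 4 each) and did not pass (log2 difference -0.01 ± 0.074 SE, edgeR adjusted p = 0.941). Col3a1, the type III chain gene, had 2.15 ± 0.430 and 2.86 ± 0.372 CPM and did not pass (edgeR adjusted p = 0.0732), although it did without DMSO replicate 2 (0.0365), without DS38 replicate 1 (0.0446) and with library totals in place of TMM factors (0.0407).

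The type I genes were close to silence. Col1a1 had 0.160, 0.0869, 0.326 and 0.357 CPM in DMSO and 0.544, 0.929, 1.09 and 0.624 CPM in DS38, from 19 and 71 counts. That is a rise of 3.50-fold without overlap (edgeR adjusted p = 0.0016, log2 fold change 1.81 ± 0.403 SE). Col1a1 had only 4, 2, 6 and 7 counts in DMSO replicates 1 to 4, below the 10 that the filter asks for. It thus entered the test only through DS38, the group in which it was high, and its call is tied to the filter. With the filter removed, Col1a1 still passed (edgeR adjusted p = 0.000102). Col1a2, whose chain joins that of Col1a1 in the type I trimer, had 3 counts over the 8 libraries, 2 in DMSO and 1 in DS38.

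**Figure D3:**
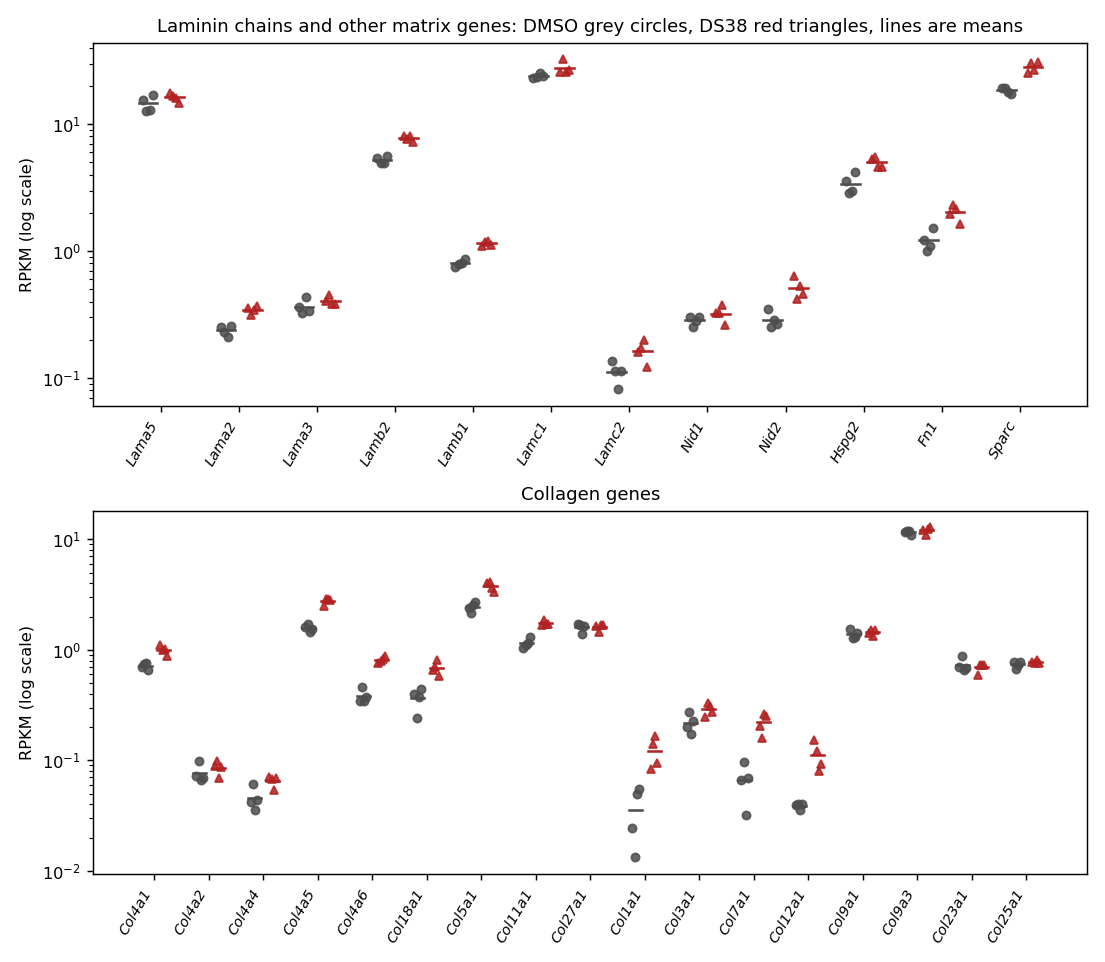
RPKM on a log axis for each library, grey circles for DMSO and red triangles for DS38, with a line at each group's mean; laminin and other matrix genes are above and 17 collagen genes are below. The groups stand apart for Lamb2, Lamb1, Sparc, Col4a5, Col4a6, Col5a1 and Col11a1, and lie over each other for Lama5, Nid1, Col27a1 and Col9a3.

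Among the remaining collagens, several genes of low level rose, and the best expressed collagen gene did not pass. Col9a3, a chain of the fibril-associated type IX collagen, gave 44.8% to 49.4% of all collagen RPKM in DMSO libraries and 37.0% to 42.6% in DS38 libraries. Its level was 44.8 ± 1.78 CPM in DMSO and 46.6 ± 3.31 CPM in DS38 (SD, n = 4 each; log2 difference 0.05 ± 0.054 SE, edgeR adjusted p = 0.479). Its partner chains were far less abundant, with Col9a1 at 1.39 RPKM and Col9a2 at 0.210 RPKM in DMSO against 11.6 RPKM for Col9a3, and neither passed (edgeR adjusted p = 0.713 and 0.625). The summed RPKM of all collagen genes was 24.1 to 24.8 in DMSO libraries and 29.4 to 30.6 in DS38 libraries. Without Col9a3 the sum was 12.2 to 13.5 in DMSO libraries and 17.4 to 18.5 in DS38 libraries, with no overlap. These sums restate calls of single genes, such as Col5a1, Col4a5 and Col11a1, and are no separate result.

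Col18a1, the basement membrane collagen gene whose C-terminal fragment is endostatin, rose 1.90-fold, from 2.77, 1.70, 2.61 and 3.11 CPM to 4.65, 4.89, 5.65 and 4.11 CPM (edgeR adjusted p = 0.000282). Col7a1, the anchoring fibril gene, had 0.682, 1.00, 0.326 and 0.715 CPM in DMSO and 2.09, 1.65, 2.71 and 2.60 CPM in DS38. The DS38 libraries were well clear of the DMSO libraries in both genes, and for Col7a1 the rise was 3.18-fold (edgeR adjusted p = 8.12e-05). Col7a1 had 6 counts in DMSO replicate 3, too few for the filter, so it was tested only because of its DS38 counts. Its call is thus tied to the filter. With the filter removed, Col7a1 still passed (edgeR adjusted p = 7.32e-10). Col12a1, a fibril-associated collagen gene, rose 2.89-fold from 0.602, 0.609, 0.544 and 0.612 CPM to 2.30, 1.86, 1.21 and 1.4 CPM (edgeR adjusted p = 0.000121). Col20a1, of the same class, went from 1.08, 1.26, 0.924 and 1.17 CPM to 2.22, 1.62, 1.90 and 1.46 CPM (edgeR adjusted p = 0.015). It did not pass without DS38 replicate 1 (0.0586), and its exons overlap those of another transcript on the same strand. Col6a1, a beaded-filament chain gene, rose 2.51-fold at 0.455 ± 0.127 and 1.16 ± 0.228 CPM (SD, n = 4 each; edgeR adjusted p = 0.00108). It had 5 counts in DMSO replicate 3, so it too was tested only because of its DS38 counts. Without the filter Col6a1 passed as well (edgeR adjusted p = 0.000273). Neither tested transmembrane collagen gene, Col23a1 or Col25a1, passed (edgeR adjusted p = 0.659 and 0.561).

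Of 13 tested integrin alpha genes 7 rose and 6 did not pass, while the dominant beta gene fell and another beta gene, Itgb5, rose. Itgb1 (ENSMUSG00000025809), the beta 1 chain gene, was the most abundant member per length, at 112 ± 2.04 RPKM in DMSO, followed by Lamc1 at 23.9 ± 0.882 RPKM and Sparc at 18.5 ± 0.958 RPKM (SD, n = 4 each). It stood at 449, 456, 469 and 455 CPM in DMSO replicates 1 to 4 and at 392, 390, 386 and 386 CPM in DS38 replicates 1 to 4. Every DS38 library lay below every DMSO library, a pattern seen in 18.8% of all tested genes. The fall of Itgb1 was small, with a log2 fold change of -0.24 ± 0.036 SE (edgeR adjusted p = 5.06e-05), and it passed in each of the 18 alternatives, including each scaling, with log2 fold changes of -0.25 to -0.18. Itgb1 gave at least 97.7% of the summed RPKM of integrin beta genes in every library.

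All 3 genes grouped here as laminin-binding alpha chains, Itga7, Itga6 and Itga3, rose. Itga7 (ENSMUSG00000025348), known from muscle as a laminin receptor chain, had 83.9, 87.3, 80.6 and 88.0 CPM in DMSO and 121, 122, 129 and 115 CPM in DS38. It rose 1.43-fold with no overlap (log2 fold change 0.52 ± 0.044 SE, edgeR adjusted p = 5.24e-08). Itga6 (ENSMUSG00000027111), the laminin receptor chain gene of neural progenitors and epithelia, rose 1.95-fold, from 6.98, 6.09, 7.67 and 8.88 CPM to 12.8, 15.2, 14.8 and 14.8 CPM (edgeR adjusted p = 8.65e-07, log2 fold change 0.97 ± 0.103 SE). Per length Itga7 remained far above Itga6, at 10.5 against 0.810 RPKM in DMSO and 15 against 1.58 RPKM in DS38. Itga3 had 2.93, 2.96, 2.01 and 2.40 CPM against 3.52, 3.65, 3.57 and 3.12 CPM. The groups were apart, but the call of Itga3 (edgeR adjusted p = 0.0408) was lost without DMSO replicate 3 (0.115), DMSO replicate 4 (0.0892), DS38 replicate 1 (0.0646), DS38 replicate 2 (0.104) or DS38 replicate 3 (0.0696), without the filter (0.07) and in DESeq2 (0.0672).

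Of the 4 genes for alpha chains that recognize the RGD sequence, 3 rose. Itgav (ENSMUSG00000027087), whose chain serves receptors for vitronectin and fibronectin, stood at 129, 121, 131 and 132 CPM in DMSO and 175, 161, 166 and 146 CPM in DS38. The increase was 1.26-fold with no overlap (log2 fold change 0.34 ± 0.050 SE, edgeR adjusted p = 4.19e-05). Itga8 rose 3.12-fold at low level, from 0.267 ± 0.0984 to 0.843 ± 0.0636 CPM (SD, n = 4 each; edgeR adjusted p = 0.000627). The DMSO libraries held 9, 3, 5 and 6 counts of Itga8, under the filter's minimum of 10, so it was tested through DS38 alone. Without the filter it passed too (edgeR adjusted p = 0.000198). Itga2b, the platelet integrin gene, passed at 0.682 ± 0.160 and 1.13 ± 0.251 CPM with overlap (edgeR adjusted p = 0.0362). That call was lost without DMSO replicate 1 (0.0657), DMSO replicate 3 (0.0518), DMSO replicate 4 (0.104), DS38 replicate 1 (0.0874), DS38 replicate 2 (0.0743) or DS38 replicate 3 (0.0813), without the filter (0.0649) and in DESeq2 (0.0848). Itga2b had 9 counts in DMSO replicate 4, under the filter's minimum, so its test too depended on DS38. Itga5, the fibronectin receptor chain gene, stood at 0.459 ± 0.108 and 0.422 ± 0.144 CPM and did not pass (edgeR adjusted p = 0.848).

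Itga1, a collagen receptor chain gene, passed at 0.472 ± 0.224 and 0.974 ± 0.303 CPM with overlap (SD, n = 4 each; edgeR adjusted p = 0.0239). The call was lost without DMSO replicate 2 (0.0893), DMSO replicate 4 (0.0669), DS38 replicate 2 (0.0597) or DS38 replicate 3 (0.0743). Itga1 had 6 counts in both DMSO replicate 2 and DMSO replicate 4, under the filter's minimum of 10. It was thus tested only because of its DS38 counts, and it passed without the filter (edgeR adjusted p = 0.0134). Itga9, the third most abundant alpha gene at 4.08 ± 0.137 RPKM in DMSO and 4.25 ± 0.180 RPKM in DS38, did not pass (log2 difference 0.06 ± 0.052 SE, edgeR adjusted p = 0.405). Among beta genes, Itgb5, a partner of the alpha v chain, rose from 2.33, 3.0, 2.07 and 3.01 CPM to 4.40, 3.82, 3.0 and 3.33 CPM. DS38 replicate 3 was no higher than DMSO replicate 4, and the call (edgeR adjusted p = 0.0261) was lost without DMSO replicate 1 (0.0685), DMSO replicate 3 (0.0814), DS38 replicate 1 (0.087) or DS38 replicate 2 (0.0714). Itgb4, the hemidesmosome chain gene, and Itgb8 did not pass (edgeR adjusted p = 0.919 and 0.866). Of the 5 leukocyte alpha genes, Itgae (1.46 ± 0.362 and 2.04 ± 0.509 CPM, SD, n = 4 each; edgeR adjusted p = 0.0874) and Itgal (edgeR adjusted p = 0.459) did not pass, and Itgad, Itgam and Itgax had 10, 2 and 1 counts in all.

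Itgb1 was also set against its possible alpha partners in each library, as a description. Of those partner genes, Itgav, Itga7, Itga6, Itga3, Itga8 and Itga1 rose, Itga9, Itga4, Itga5 and Itga10 did not pass, and Itga2 and Itga11 were not tested. The summed RPKM of the alpha genes whose chains can pair with beta 1 was 27.6 to 29.0 in DMSO libraries and 34.6 to 38.3 in DS38 libraries. The ratio of Itgb1 to that sum was 3.88, 4.06, 4.15 and 3.84 in DMSO replicates 1 to 4 and 2.50, 2.56, 2.48 and 2.73 in DS38 replicates 1 to 4. The lower ratios in DS38 restate the calls of Itgb1, Itgav and Itga7 and are no separate result. Itgav and Itga7 together gave 76.9% to 78.7% of alpha RPKM in DMSO libraries and 78.3% to 80.7% in DS38 libraries, ranges that overlap.

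**Figure D4:**
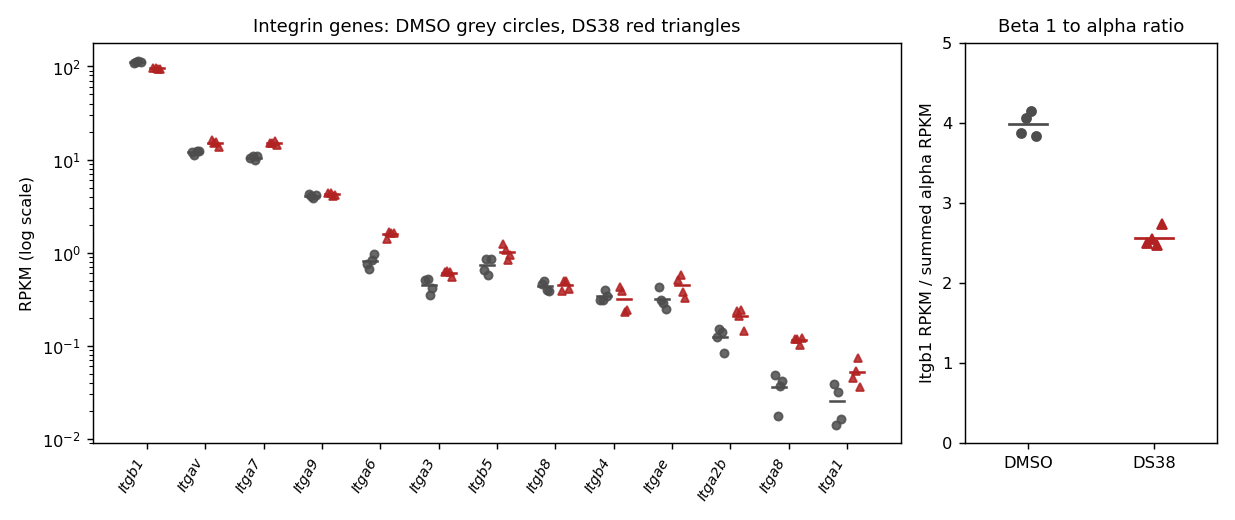
Left, RPKM on a log axis of 13 integrin genes in each library, grey circles for DMSO and red triangles for DS38, with lines at the means; right, the RPKM of Itgb1 divided by the summed RPKM of its alpha partners. Itgb1 is the only gene shown whose DS38 libraries all lie below the DMSO libraries, and the ratio runs from 3.84 to 4.15 in DMSO and from 2.48 to 2.73 in DS38.

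Genes around these proteins were counted on lists drawn up by function. Adaptors on integrin tails and in focal adhesions gave 11 rises (44%) and 4 falls (16%) in 25 tested genes, against 18.8% and 20.7% of all tested genes, with a median log2 fold change of 0.02. Tln1, which encodes the talin that links integrin beta tails to actin, went from 85.6 ± 5.17 to 117 ± 8.20 CPM (SD, n = 4 each; edgeR adjusted p = 3.13e-06, log2 fold change 0.46). Zyx (log2 fold change 0.51), Pxn (0.33) and Actn1 (0.37), for the adhesion proteins zyxin, paxillin and alpha-actinin 1, rose too. Of 18 tested matrix receptors that are not integrins, 6 rose (33.3%) and 3 fell (16.7%), with a median of 0.04. Ddr2, a receptor kinase gene for fibrillar collagen, fell from 333 ± 25.5 to 229 ± 8.66 CPM (edgeR adjusted p = 1.63e-07), whereas the hyaluronan receptor gene Cd44 rose (log2 fold change 0.65).

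Enzymes and chaperones that make collagen were raised about as often as all genes. With 24 tested, 5 rose (20.8%) and 3 fell (12.5%), against 18.8% and 20.7% of all tested genes, and the median log2 fold change was close to 0. Serpinh1, which encodes the collagen chaperone Hsp47, fell from 127 ± 9.49 to 81.2 ± 3.92 CPM (SD, n = 4 each; edgeR adjusted p = 2.90e-08, log2 fold change -0.64). The prolyl 3-hydroxylase gene P3h3 fell (log2 fold change -0.45), and its relative P3h1 (0.46) and the COPII coat gene Sec24d (0.36), which serves collagen export, rose. Of 19 other basement membrane and matrix genes tested, 10 rose (52.6%) and 2 fell (10.5%), with a median of 0.26. They included Ntn1, the netrin 1 gene (log2 fold change 0.73), Smoc1 (0.41) and Papln (0.76), while Fbln5, for an elastic fibre protein, had a log2 fold change of -2.54. Of 17 proteases and inhibitors, 8 rose (47.1%) and 1 fell (5.88%), with a median of 0.26, among the risers the metalloprotease inhibitor genes Timp3 (0.80) and Timp2 (0.68). Of 12 genes of the neural matrix, 5 rose (41.7%) and 2 fell (16.7%), with a median of 0.34, and with Ncan up (0.30) and Bcan down (-0.28), both for lecticans.

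Markers of other cell types ranged from no counts to the level of Slc1a2, at 245 CPM in DMSO. Of 10 fibroblast markers, 7 were under 1 CPM on average and Twist2 had no counts. Their summed level, 83.9 to 87.3 CPM in DMSO and 69.4 to 74.1 CPM in DS38, was mostly Pdgfra, which fell from 73.3 to 51.1 CPM, and Pdpn rose from 9.43 to 16.0 CPM. Dcn and Postn, abundant in fibroblasts, had 3 and 1 counts in DMSO and 5 and 4 in DS38. Mural cell markers summed to 6.09 to 8.47 CPM and 5.46 to 8.79 CPM, with 7 of 10 under 1 CPM and Rgs5 without counts. Among them Kcnj8 fell from 3.06 to 1.85 CPM (edgeR adjusted p = 0.00507), and the other 3 tested did not pass. Endothelial markers summed to 1.12 to 2.72 CPM and 2.65 to 3.23 CPM, with 9 of 10 under 1 CPM, and Tie1 and Cldn5 without counts. Tek passed at 0.318 ± 0.336 CPM in DMSO and 0.747 ± 0.104 CPM in DS38 with overlap (SD, edgeR adjusted p = 0.0295). With 25 counts over the DMSO libraries, it was tested only because of its DS38 counts. Leukocyte markers summed to 0.870 to 1.53 CPM and 1.55 to 2.03 CPM, with 9 of 10 under 1 CPM and both Cx3cr1 and Cd3e without counts. Astrocyte markers summed to 344 to 385 CPM and 348 to 374 CPM, mostly Slc1a2 (245 and 250 CPM), which did not pass, and Slc1a3, which fell from 119 to 109 CPM (edgeR adjusted p = 0.00831). Gfap rose from 1.83 to 3.07 CPM (edgeR adjusted p = 0.00421), and Gjb6 had no counts. Oligodendrocyte lineage markers summed to 84.4 to 90.6 CPM and 62.0 to 66.8 CPM, again mostly Pdgfra, with Mag without counts. Schwann and neural crest markers summed to 71.3 to 83.8 CPM and 79.8 to 85.2 CPM, mostly Ngfr, which did not pass, while Prrx1 rose. The part of the shifts in these lists in the values of the members was not tested.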

How the data were processed

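The deposited table holds whole-number counts of reads per gene for 8 libraries and each gene's length in bases. The authors had not normalized the counts. Per the submitters' processing notes, the tools were featureCounts, Subread 2.0.3, STAR 2.7.9a, edgeR and R 4.1.0, and the builds named are GRCh38.p13 and GRCm39, with no role stated for either. Strand setting, annotation release and treatment of multiply matching reads: not given in the sources used here.

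Identifiers were named with GENCODE M21 on GRCm38, which matched 52135 of 55416; no gene coordinates are given, since the builds differ, apart from the promoters, which are RefSeq sequences on GRCm38.p6. A common symbol went to the most counted identifier. Tests used edgeR 4.0.16 under R 4.3.3 (quasi-likelihood, robust, TMM factors, filterByExpr minimum of 10 counts), with Benjamini-Hochberg adjustment over 15133 genes and a threshold of 0.05. Standard errors are the log2 fold change over the square root of F. RPKM was computed from TMM-adjusted CPM and the length column. The script was first tested on simulated data. Alternatives used DESeq2 1.42.0 and limma 3.58.1.

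The members, lists and tests were chosen with earlier results of these data known. Members named with values in each library were those called at a mean level of 1 CPM or more and a set fixed by role; of other lists, up to 4 genes with the smallest p were named. Col6a1, Itga8, Itga1, Itga2b and members that did not pass outside that set were named after their values were seen, as were single markers.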

Additional observations from a re-analysis of the deposited data

Results flagged for a closer look

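In each group of 4 libraries, the highest and lowest value of each member that was called or named by rule was compared with the other three, and 5 values stood apart beyond the 95% critical value of Dixon's gap-to-range ratio. Chance gives about 1 in 20 groups, and 68 groups were looked at. DS38 replicate 2 was high for Lamc1, at 269 CPM against 214 to 220 CPM in the other DS38 libraries, and for Col11a1, at 23.7 CPM against 21.6 to 21.8 CPM. DS38 replicate 3 was low for Lama1, at 0.115 CPM against 0.335 to 0.378 CPM. DMSO replicate 3 was low for Col12a1, at 0.544 CPM against 0.602 to 0.612 CPM. DS38 replicate 1 held the single DS38 count of Col1a2, at 0.0419 CPM. The other DS38 libraries held none, so the ratio for Col1a2 was fixed in advance and its flag carries no information.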

How the results depend on the processing

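Over 18 alternatives, 18 to 29 members rose and 1 fell, Itgb1 in each. The alternatives were DESeq2's size factors, library totals, DESeq2's Wald test, limma-voom, no filter, a filter of 50 counts in 4 libraries, a fit that was not robust, the replicate number as a block, leaving out each library in turn and, chosen after seeing the data, leaving out both libraries numbered 1 and a correction for gene length. Without 1 library, 23 to 29 members rose. The lowest count, 18, came from the filter of 50 counts, under which 30 members were tested. That is 60% of those members, against 22.6% of all genes tested in that setting. With no filter the shares were 27.9% of members and 8.99% of all genes. No called member changed direction, and 21 of 28 calls held in every alternative that tested the gene. The other 7 were Lamc1, Hspg2, Col20a1, Itga3, Itga2b, Itga1 and Itgb5. Without both libraries numbered 1, 24 members rose, and Hspg2 (edgeR adjusted p = 0.102), Col20a1 (0.0922), Itga2b (0.119) and Itgb5 (0.165) did not pass. Among all genes, 4939 to 6219 passed, against 5980 in the main setting, and the share of rises among them was 47.5%, or 64.3% with library totals.

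The replicate numbers were not taken as pairs: the correlations of deviations were 0.331, -0.0699, 0.067 and -0.0816 for numbers 1 to 4, over 0.1 for number 1 alone, and not every library correlated best with its own number. With the replicate number as a block, 27 members rose, 1 fell and 2546 genes rose in all. Members under the filter had at most 56 counts, which limits what the depth can show for them.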
